A study of Mus musculus with 6 samples.

Results

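Transcripts of 9 enzymes that make, salvage or break down the building blocks of DNA were followed in B16 mouse melanoma cells kept for 3 days in 1 uM CX5461 or in its vehicle, DMSO. The genes are Tk1, Tyms, Rrm1, Rrm2, Dck, Dut, Dtymk, Samhd1 and Umps. They were chosen by symbol, each has 1 row among the 22740 protein-coding genes of the deposited count table, and all 9 passed the filter on low counts that left 12198 genes for testing. Both groups hold 3 libraries of the same BRAFV600E-negative line and differ in the agent alone, as labelled. CX5461 inhibits RNA polymerase I, which transcribes the ribosomal RNA genes. The labels do not say whether replicates came from separate cultures, so the p-values measure the spread between these samples, which may be technical.

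Deoxynucleotides are made mostly from ribonucleotides. Ribonucleotide reductase, built from the large subunit Rrm1 and a small subunit, either Rrm2 or Rrm2b, removes the ribose hydroxyl group. Rrm2 is known as the subunit of dividing cells in S phase, and Rrm2b as a p53-induced subunit that supplies DNA repair and mitochondrial DNA. Thymidylate then needs Dut, which turns dUTP into dUMP, Tyms, which methylates dUMP, and Dtymk, which phosphorylates dTMP. Tk1 and Dck salvage nucleosides in the cytosol, Samhd1 hydrolyses finished dNTPs, and Umps completes the de novo synthesis of UMP, the parent of all pyrimidines. Many of these genes are textbook targets of E2F transcription factors.

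With CX5461, 7 of the 9 enzymes were higher, Umps was lower and Dck did not pass (edgeR quasi-likelihood test, Benjamini-Hochberg adjusted p below 0.05 over all tested genes). The rises ran from 1.12-fold for Samhd1 to 7.70-fold for Tk1, and the median over the 9 was 1.76-fold, or 0.82 on the log2 scale. Over all tested genes the median log2 change was -0.005. The libraries of the groups did not overlap for 8 of the 9, 7 with CX5461 above and 1 below, where 76.2% of all tested genes did not overlap, 38.2% above and 37.9% below. Calls were common in this comparison: 73.7% of all tested genes passed, 37.2% as higher and 36.5% as lower. A call alone therefore says little, and the sizes carry the description. Tk1, Rrm2 and Rrm1 ranked 167, 316 and 632 from the largest rise among the 12198 genes, whereas Samhd1 and Dck ranked 4720 and 4870 and Umps 8436. In bulk RNA, a larger share of cells in S phase and more transcript per cell cannot be told apart.

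The libraries held 17573990 to 22908309 counts. Values are in CPM, each count as parts per 1e6 of its library's TMM-scaled total, and 3 counts, the upper limit that a count of 0 allows, equal 0.135 to 0.173 CPM, counting error only. CX5461 replicate 2 differed most from its group, with chi-square values of 9.36 and 7.63 per degree of freedom against replicates 1 and 3. Replicates 1 and 3 gave 5.63 with each other, and the DMSO pairs 1.58 to 2.57. The share of counts from the mitochondrial genome was 1.70% to 1.84% with DMSO and 2.70% to 3.399% with CX5461. All 7 melanocytic markers were abundant, summing to 22078 to 22931 CPM with DMSO and to 28251 to 30557 CPM with CX5461. The 5 fibroblast markers summed to 12.5 to 16.5 CPM with DMSO and 30.9 to 34.4 CPM with CX5461 and went opposite ways: Col1a2 rose 11.4-fold from 2.22 to 25.1 CPM, Col1a1 fell 2.46-fold and Pdgfra 1.29-fold. Dcn and Lum were at 0 counts in all DMSO libraries, and at 3 counts or fewer in each CX5461 library. Of the 5 leukocyte markers, which summed to 11.4 to 12.4 and 17.2 to 19.5 CPM, Lyz2 rose 4.62-fold from 0.871 to 4.20 CPM and Cd79a 3.41-fold from 0.477 to 1.63 CPM. Cd68 did not pass (10.6 and 12.3 CPM), Cd3e had no count and Ptprc 1 count in all. The 3 endothelial and 3 keratinocyte markers stayed below 0.3 CPM in sum. The part of these differences in the results below was not tested.

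**Figure D1:**
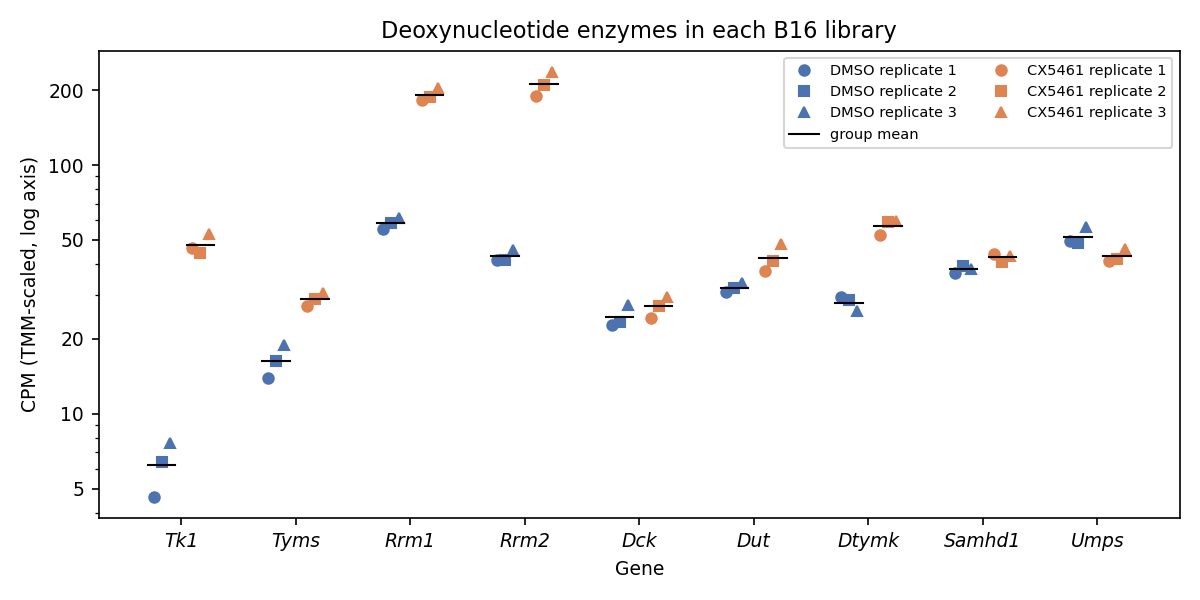
CPM (TMM-scaled, log axis) of the 9 enzyme genes in each library, DMSO in blue and CX5461 in orange, with marker shapes for replicates 1 to 3 and black bars for group means. Tk1, Rrm1 and Rrm2 part the groups widely, with Tk1 at 4.64 to 7.65 against 44.4 to 52.8 CPM, while the Dck libraries overlap.

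Both subunits of ribonucleotide reductase rose. Rrm2 (chr12:24708241-24714146, GRCm38) held 41.6, 41.4 and 45.7 CPM in DMSO replicates 1 to 3 and 190.2, 210.8 and 236.8 CPM in CX5461 replicates 1 to 3. All treated libraries lay far above all controls, and the rise was 4.96-fold, or 2.31 ± 0.07 (log2, SE, n = 3 per group, edgeR adjusted p = 5.43e-13). Rrm1 (chr7:102441695-102469771) held 55.5, 58.6 and 61.3 CPM with DMSO and 182.3, 187.8 and 204.6 CPM with CX5461. Its groups did not overlap either. A same-strand gene model, Gm45399, overlaps Rrm1 by 1016 bases, so some reads may be shared with it. Rrm1 rose by 1.71 ± 0.06 (edgeR adjusted p = 8.03e-13), which is 3.28-fold. In level, Rrm1 moved from the 64.3rd to the 91.5th percentile of the tested genes and Rrm2 from the 55.1st to the 92.7th.

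The other small subunit went the opposite way. Rrm2b (chr15:37923952-37961318), one of 20 partner genes listed beside the enzymes, held 59.7, 57.4 and 65.3 CPM with DMSO and 33.6, 30.8 and 31.5 CPM with CX5461. The groups did not overlap, and Rrm2b fell 1.90-fold (log2 change -0.92 ± 0.06, edgeR adjusted p = 3.94e-09). A processed pseudogene on the same strand, Gm3362, overlaps Rrm2b by 466 bases, and an antisense gene, Gm49085, by 848 bases. Whether counting used strand is not known, so some reads of Rrm2b may be shared with either. Per kb of messenger RNA, Rrm2 stood at 1.45 to 1.498 times Rrm2b in the DMSO libraries and at 11.8, 14.25 and 15.6 times in CX5461 replicates 1, 2 and 3. The ratio was 9.39-fold higher with CX5461 (exact permutation test, two-sided, p = 0.10, the smallest that 3 against 3 samples allow). The Rrm2 to Rrm1 ratio per kb was 1.29 to 1.37 with DMSO and 1.90 to 2.11 with CX5461, again without overlap and 1.51-fold higher (exact permutation p = 0.10). Which transcript stands higher with DMSO depends on the length used. Without length, the mean DMSO count ratios were 0.706 for Rrm2 over Rrm2b and 0.734 for Rrm2 over Rrm1, against 6.67 and 1.11 with CX5461. Over the 6 ratios compared, Benjamini-Hochberg adjustment takes the exact permutation p of 0.10 to 0.12, so no ratio can pass in this design.

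Promoter letters are shown for Rrm1, Rrm2 and Dtymk, which rose and hold a CCAAT box, and for Umps, which fell and holds neither word. The sequences are from RefSeq, build GRCm38.p6, 120 bases each, 5′ to 3′ on the gene's own strand and ending just before the more upstream of the RefSeq and GENCODE gene starts. Capitals mark the CCAAT box (CCAAT or its reverse complement, as bound by NF-Y) and E2F-type words on either strand (TTCCCGC with its variant TTCGCGC, besides TTGGCGC with its variant TTGCCGC).
Rrm1 (chr7:102441575-102441694, + strand): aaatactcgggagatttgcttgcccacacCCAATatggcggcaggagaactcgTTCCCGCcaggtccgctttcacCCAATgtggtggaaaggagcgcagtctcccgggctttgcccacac
Rrm2 (chr12:24708121-24708240, + strand): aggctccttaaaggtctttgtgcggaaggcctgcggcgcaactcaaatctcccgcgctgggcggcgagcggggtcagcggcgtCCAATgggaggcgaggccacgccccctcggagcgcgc
Dtymk (chr1:93801935-93802054, - strand): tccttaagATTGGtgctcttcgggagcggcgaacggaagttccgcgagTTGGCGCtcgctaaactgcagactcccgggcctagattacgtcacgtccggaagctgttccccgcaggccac
Umps (chr16:33967039-33967158, - strand): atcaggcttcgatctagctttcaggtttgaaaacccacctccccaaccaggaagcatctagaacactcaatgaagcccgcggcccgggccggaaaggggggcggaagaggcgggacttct

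All 9 genes matched a RefSeq window from 250 bases before to 50 after the start, 1 window each. The Dut window lies wholly inside the GENCODE gene, and those of Samhd1 and Tk1 hold only 81 and 172 bases upstream of both starts. A word missing from these windows may therefore lie further upstream. An E2F-type word was found in 3 of the 9 windows, those of Rrm1, Rrm2 and Dtymk, against 9.57% of all 32851 mouse windows and 16.8% of the 11733 windows of tested genes. In Rrm1 it starts 67 bases before the RefSeq start, in Dtymk 72 and in Rrm2 235, outside the stretch shown. CCAAT was found in the same 3 windows, against 37.9% of those of tested genes. The words of the cell-cycle homology region, TTTGAA or TTCGAA on either strand, were found in the windows of Dck and Umps, against 13.4% of those of tested genes. The E-box CACGTG was found in the windows of Tyms and Dtymk, against 10.0% of those of tested genes. Among windows of genes called higher and lower, 16.95% and 16.34% held an E2F-type word, so these letters hardly differed between the directions. Matches are descriptions and not sites.

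The thymidylate branch rose at each of its steps, by different amounts. Dtymk (chr1:93792576-93801934) held 29.4, 28.6 and 26.0 CPM with DMSO and 52.2, 58.9 and 59.7 CPM with CX5461, a 2.03-fold rise (1.02 ± 0.07, edgeR adjusted p = 3.17e-09). Tyms (chr5:30058202-30073617) held 14.0, 16.3 and 18.8 CPM with DMSO and 27.1, 28.9 and 30.7 CPM with CX5461, and rose 1.76-fold (0.82 ± 0.10, adjusted p = 1.51e-06). Both genes had all treated libraries above all controls. Dut (chr2:125247190-125258608) held 30.8, 32.1 and 33.6 CPM with DMSO and 37.7, 41.3 and 48.0 CPM with CX5461. It rose 1.31-fold (0.39 ± 0.08, edgeR adjusted p = 4.34e-04), also without overlap but with a spread among treated libraries of 5.23 CPM (SD, n = 3). Counts of Dut do not part its nuclear and mitochondrial forms.

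Among the genes around this branch, Shmt1 rose and the deaminase Dctd did not pass. Shmt1, the cytosolic serine hydroxymethyltransferase that loads the folate, held 6.07, 5.74 and 6.31 CPM with DMSO and 22.88, 25.31 and 32.30 CPM with CX5461, 4.44-fold higher. Its groups did not overlap (edgeR adjusted p = 7.04e-10), and whether its change differs from that of Tyms was not tested. Dctd, the dCMP deaminase that gives dUMP, was at 13.6 ± 0.18 and 13.8 ± 1.03 CPM (SD, n = 3 per group) and did not pass (log2 change 0.03, edgeR adjusted p = 0.804). The change was negative under scaling by library totals (-0.047), under an offset that removes each library's trend with gene span (-0.082), and without CX5461 replicate 3 (-0.042). Of 10 further folate-cycle genes, 4 rose and 6 fell, where 37.2% of all tested genes were higher and 36.5% lower. The median log2 change of these 10 was -0.46. The 4 rises became 2 under library totals, under the gene-span offset, and without DMSO replicate 2 or CX5461 replicate 3. Mthfd1, the cytosolic trifunctional enzyme, rose 1.80-fold and the reduced folate carrier Slc19a1 fell 1.75-fold. Mthfd1l, its mitochondrial relative, rose 1.70-fold, but by 0.01 on the log2 scale with the gene-span offset (adjusted p = 0.864).

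The salvage kinases differed from each other. Tk1 (chr11:117815526-117826092), thymidine kinase, held 4.64, 6.37 and 7.65 CPM with DMSO, from 85, 132 and 137 counts, and 46.4, 44.4 and 52.8 CPM with CX5461, from 1031, 772 and 1045 counts. All treated libraries lay far above the highest control, and the 7.70-fold rise (2.94 ± 0.12, edgeR adjusted p = 8.47e-12) was the largest of the 9. Opposite Tk1 lie 2 annotated genes: Gm20708, which spans all of it, had 1 count in all, and Afmid, which shares 169 bases, had 131 to 212 counts per library. Dck (chr5:88764996-88783281), deoxycytidine kinase, held 22.8, 23.3 and 27.3 CPM with DMSO and 24.4, 27.2 and 29.6 CPM with CX5461. These ranges overlap, and the change of 0.14 ± 0.09 did not pass (edgeR adjusted p = 0.158). It passed without DMSO replicate 3 (0.22, adjusted p = 0.0471) and without CX5461 replicate 1 (0.21, adjusted p = 0.0458).

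The mitochondrial salvage kinases did not rise. Tk2, the mitochondrial thymidine kinase, was at 48.1 ± 0.47 and 43.0 ± 4.16 CPM, and Dguok, the mitochondrial deoxyguanosine kinase, at 45.8 ± 2.57 and 40.7 ± 4.08 CPM (SD, n = 3 per group). Their log2 changes of -0.16 ± 0.07 and -0.18 ± 0.07 passed narrowly (edgeR adjusted p = 0.0396 and 0.0405). Both calls ended with DESeq2 and without DMSO replicate 1 or 2 or without CX5461 replicate 1 or 3, and that of Tk2 also without DMSO replicate 3, with adjusted p up to 0.172 and 0.160. Per kb, Tk1 stood at 0.162, 0.223 and 0.263 of Tk2 with DMSO and at 1.81, 1.57 and 2.27 times Tk2 with CX5461. The groups did not overlap, and the ratio was 8.79-fold higher with CX5461 (exact permutation p = 0.10). Which of the 2 kinases stands higher with CX5461 depends on the length used: in CPM, without length, CX5461 replicate 2 had Tk1 at 44.4 and Tk2 at 47.3. The Tk1 to Tyms ratio rose in the same way, from 0.729, 0.860 and 0.893 to 3.77, 3.38 and 3.78 per kb (4.41-fold, exact permutation p = 0.10). For Dck over Dguok the groups overlapped, at 0.175 to 0.229 and 0.215 to 0.275 per kb (exact permutation p = 0.20).

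**Figure D2:**
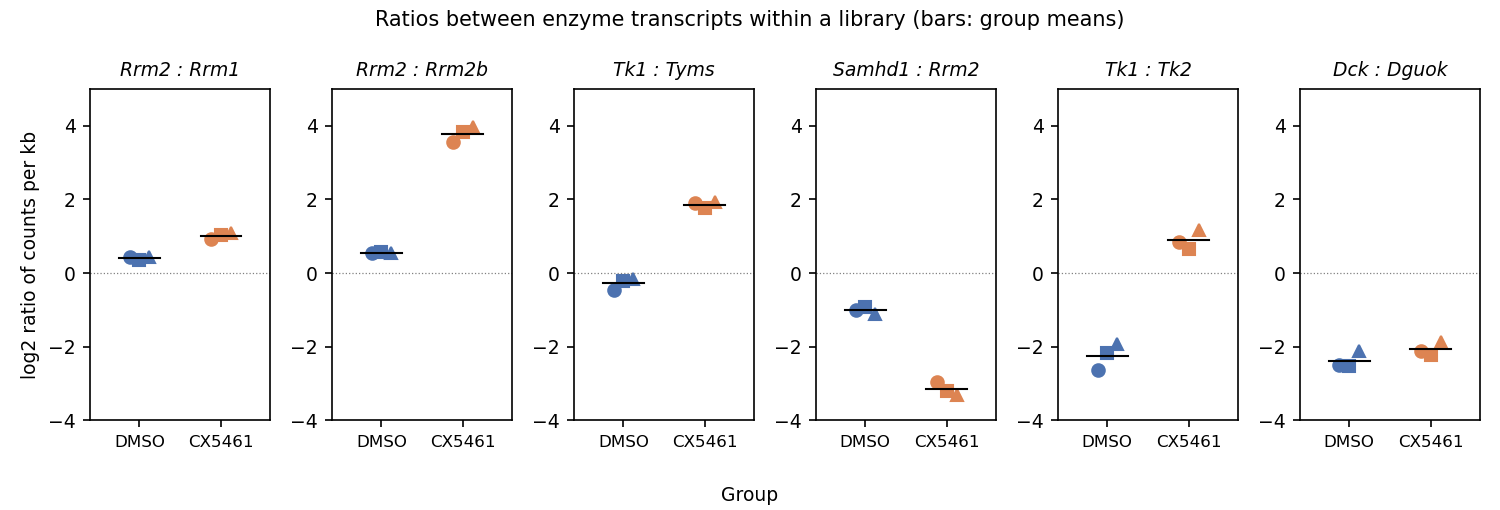
Log2 ratio of counts per kb of messenger RNA for 6 pairs of enzyme genes in each library (blue DMSO, orange CX5461, shapes for replicates 1 to 3, bars for group means, dotted line for equal levels). The groups part in the first 5 pairs, with Rrm2 over Rrm2b going from 1.45 to 1.498 up to 11.8 to 15.6 as plain ratios, and overlap for Dck over Dguok.

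Samhd1 and Umps changed little. Samhd1 (chr2:157097533-157135265), the dNTP hydrolase, held 36.9, 39.3 and 38.1 CPM with DMSO and 43.9, 40.8 and 43.1 CPM with CX5461. The groups did not overlap, though the lowest treated library lay only just above the highest control. Its change of 0.16 ± 0.06 passed (edgeR adjusted p = 0.0223), and the call ended under 9 of 13 alternative settings, with adjusted p up to 0.189. Among them were DESeq2 (0.0503), library totals only (0.189) and leaving out DMSO replicate 1 (0.104), DMSO replicate 3 (0.0587), CX5461 replicate 1 (0.0812) or CX5461 replicate 3 (0.0630). Against Rrm2, Samhd1 stood at 0.466 to 0.531 per kb with DMSO and at 0.102 to 0.129 with CX5461, 4.42-fold lower (exact permutation p = 0.10).

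Umps (chr16:33954782-33967038) held 49.5, 48.6 and 56.1 CPM with DMSO and 41.0, 42.1 and 45.9 CPM with CX5461. It was the only one of the 9 that fell, with all treated libraries below all controls, by 0.26 ± 0.07 on the log2 scale (edgeR adjusted p = 3.00e-03), which is 1.20-fold. An antisense gene, Gm15829, overlaps it by 800 bases. Whether counting used strand is not known, so reads from these shared bases cannot be told apart. The steps of de novo pyrimidine synthesis before Umps did not follow it. Cad, which carries the opening steps, rose 1.16-fold from 124.5 ± 1.76 to 144.3 ± 13.8 CPM (SD, n = 3 per group). Dhodh, the mitochondrial step before Umps, rose 1.37-fold from 12.6 ± 0.41 to 17.3 ± 1.30 CPM. Further on, the CTP synthase Ctps fell 1.54-fold from 74.4 ± 1.48 to 48.4 ± 3.38 CPM. Its relative Ctps2 rose 1.37-fold, but by 0.003 on the log2 scale with the gene-span offset (adjusted p = 0.978). Of the 10 genes of pyrimidine salvage and nucleoside transport, 8 were tested. None rose and 4 fell, where 37.2% of all tested genes were higher and 36.5% lower. Uck2, a uridine-cytidine kinase, was the most changed (1.45-fold lower), followed by its relative Uckl1 (1.22-fold lower) and the nucleoside transporter Slc29a1 (1.19-fold lower). No member of that list was higher at an unadjusted p under 0.05 either, by the edgeR test.

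**Figure D3:**
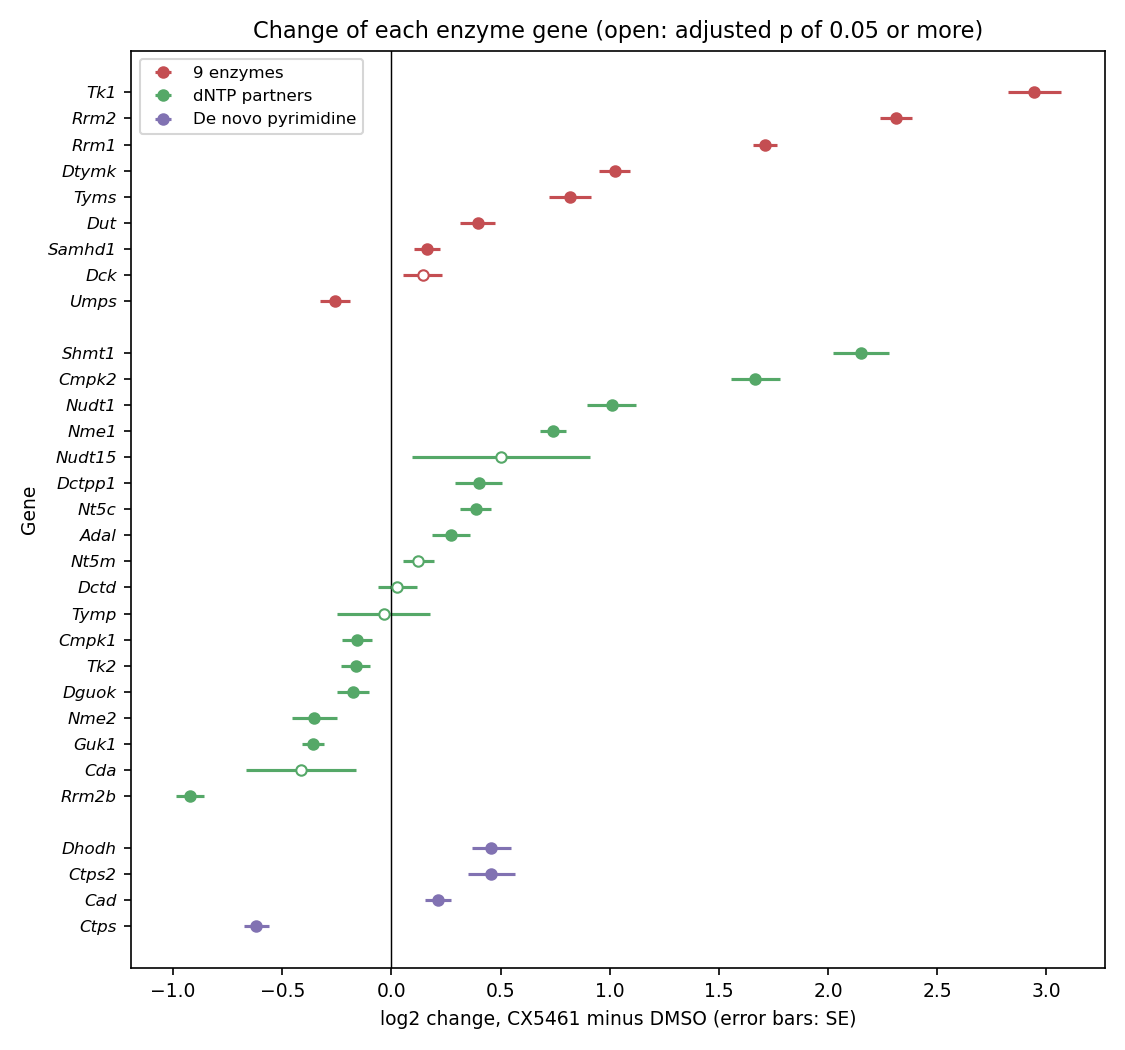
Log2 change of each gene, CX5461 minus DMSO, with SE as bars, for the 9 enzymes (red), 18 of the 20 dNTP partner genes (green) and 4 genes of de novo pyrimidine synthesis (purple). Filled points passed the edgeR test, with Tk1 at 2.94 and Rrm2b at -0.92 as the ends of the range.

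All 20 partner genes were tested. Rises numbered 9 and falls 6, the other 5 missed the threshold, and the median log2 change was 0.13. The passing share is near that of all tested genes, of which 73.7% passed, 37.2% as higher and 36.5% as lower. The falls numbered 3 with DESeq2, without DMSO replicate 1 or 2, or without CX5461 replicate 1 or 3. Besides Shmt1, genes that rose included Cmpk2, a mitochondrial nucleotide kinase also known as interferon-induced, at 3.17-fold, and Nudt1, which clears oxidised dGTP, at 2.01-fold. Nme1, a nucleoside diphosphate kinase that makes triphosphates, rose 1.67-fold from 64.4 ± 1.77 to 107.6 ± 8.07 CPM. Its close relative Nme2 fell 1.28-fold, but the pair are similar in sequence and neighbours, so some reads may be split between them. Guk1, guanylate kinase, fell 1.28-fold from 72.9 ± 1.74 to 56.8 ± 1.48 CPM. The rise of Adal (0.27) and the fall of Cmpk1 (-0.16) were small. Cmpk1 did not pass with DESeq2, nor without any 1 DMSO replicate or without CX5461 replicate 1 or 3 (edgeR adjusted p up to 0.174). Adal kept its call under 11 of 13 alternative settings, and among the others did not pass without CX5461 replicate 1 (edgeR adjusted p = 0.0663).

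On the purine side there was no common direction. Among 13 de novo genes there were 3 rises and 4 falls, 6 missed the threshold, and the median log2 change was 0.02. Of all tested genes, 37.2% were higher and 36.5% lower. The 2 ribose-phosphate synthetases that open the pathway moved apart, Prps2 2.16-fold higher and Prps1 2.05-fold lower, and Impdh1, of guanine nucleotide synthesis, fell 1.92-fold. Of 7 purine salvage genes 6 were tested, with 3 higher and 3 lower. Adenosine kinase Adk rose 3.99-fold, or by 0.66 in place of 1.99 on the log2 scale with the gene-span offset, adenosine deaminase Ada rose 1.46-fold and Aprt fell 1.45-fold. The 9 enzymes span 5.91 to 37.7 kb, and that offset moved Tk1 to 2.94, Rrm2 to 2.32 and Rrm1 to 1.70. Samhd1, the longest of the 9, went from 0.16 to 0.12 and no longer passed (edgeR adjusted p = 0.0744).

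**Figure D4:**
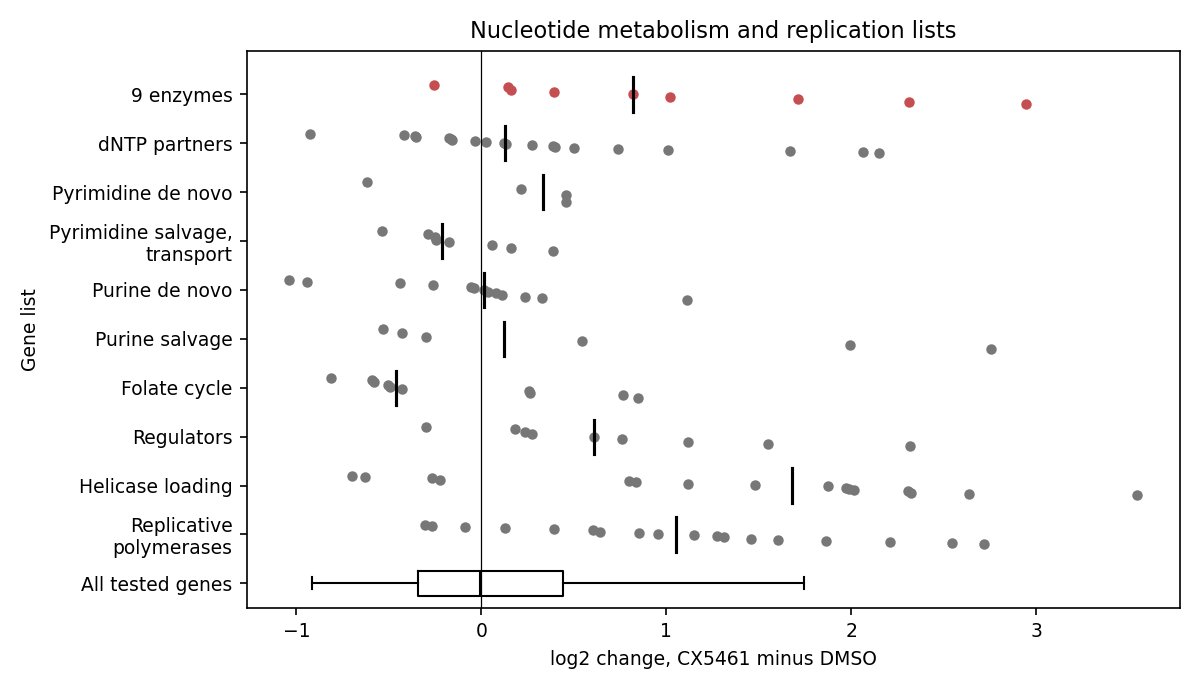
Log2 change of each tested gene, CX5461 minus DMSO, by gene list (points, spread vertically for visibility), with list medians as bars and the box of all tested genes (median, quartiles, whiskers at the 5th and 95th percentiles). The 9 enzymes have a median of 0.82, between helicase loading at 1.68 and replicative polymerases at 1.05 on one side and the purine and folate lists, at -0.46 to 0.12, on the other.

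Genes known to control these enzymes were mostly higher. Of 9 listed, 8 rose and 1 fell, where 37.2% of all tested genes were higher and 36.5% lower. E2f1 rose 4.98-fold from 10.8 ± 0.83 to 53.6 ± 5.94 CPM, E2f2 2.92-fold and E2f3 1.21-fold (with the gene-span offset, 0.07 on the log2 scale and adjusted p = 0.239). Ccnf, which directs Rrm2 protein to degradation, rose 1.53-fold, and Fzr1, which does so for Tk1 and Rrm2 proteins, 1.18-fold. Ccna2, Cdk2 and Cdk1, whose kinases phosphorylate Samhd1, rose 1.69-fold, 1.14-fold and 2.17-fold. Ahcyl1, a regulator of ribonucleotide reductase, fell 1.23-fold. Protein levels and dNTP pools were not measured.

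Beside the 9 enzymes, 12 of 16 genes of helicase loading rose and 4 fell, with a median 3.20-fold rise, led by Cdc6 (11.7-fold), Mcm5 (6.23-fold) and Mcm4 (5.01-fold). Among 18 genes of the replicative polymerases, 15 rose, 2 fell and 1 missed the threshold. Their median was 2.08-fold, with Pola1, Pole and Prim2 at 6.59-fold, 5.83-fold and 4.63-fold. Of all tested genes, 37.2% were higher and 36.5% lower. With the gene-span offset Pola1 and Prim2 were at 1.53 and 1.36 in place of 2.72 and 2.21 on the log2 scale. The profile closest to that of Rrm2 over the 6 libraries, by Euclidean distance of centred log2 CPM among 9894 genes, was that of the histone chaperone Asf1b (distance 0.06), followed by the helicase subunit Mcm3 (0.07). Closest to Rrm1 were Col16a1 and the centromere gene Cenpi, to Dtymk Eva1b and Cks1b, and to Tyms Nfatc1 and the cytokinesis gene Cep55. Tk1 lay nearest to Prss23 and Rbms3, at the larger distances of 0.21 and 0.25. For Dut the nearest were Ctnnal1 and Flrt3, for Dck Arhgef39 and Rmi1, for Samhd1 Actr1a and the proteasome subunit Psmd1, and for Umps Snx18 and Pygo1. Distances over 6 libraries in 2 groups mostly measure how alike the group difference is.

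Levels can be compared between genes per kb of messenger RNA. With DMSO the order in CPM per kb was Dtymk (27.9 ± 1.78), Rrm2 (19.6 ± 1.10), Dut (16.5 ± 0.72), Umps (14.8 ± 1.18), Rrm1 (14.6 ± 0.72), Samhd1 (9.71 ± 0.31), Dck (7.95 ± 0.80), Tyms (5.17 ± 0.76) and Tk1 (4.32 ± 1.05, SD, n = 3). The ranges of Dut and Umps, Umps and Rrm1, and Tyms and Tk1 overlapped between libraries. Within each DMSO library, however, Dut stood above Umps, and Tk1 below Tyms (0.729, 0.860 and 0.893 of it). Umps and Rrm1 changed places between libraries, so the order of these 2 is not resolved. With CX5461 the order was Rrm2 (97.0 ± 10.7), Dtymk (56.8 ± 4.07), Rrm1 (47.9 ± 2.91), Tk1 (33.3 ± 3.05), Dut (21.7 ± 2.69), Umps (12.3 ± 0.73), Samhd1 (10.9 ± 0.41), Tyms (9.13 ± 0.57) and Dck (8.78 ± 0.85). Here only the ranges of Tyms and Dck overlapped, and Tyms was the higher within each CX5461 library. Tk1 thus went from the last place to the fourth, while Tyms stayed at place 8. The order depends on the length used: per kb of all annotated exons, Rrm2 came first in both groups, Dtymk came at place 4 with DMSO and 2 with CX5461, and Tk1 went from place 9 to 6.

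Within each group the enzymes leaned to the same library. DMSO replicate 3 was the highest control for 7 of the 9, all but Dtymk and Samhd1, where 38.5% of all tested genes were highest in that library. DMSO replicate 1 was the lowest control for 6 of the 9, against 36.1% of all tested genes. CX5461 replicate 3 was the highest treated library for 8 of the 9, all but Samhd1, against 30.4% of all tested genes, and CX5461 replicate 1 was the lowest for 7, against 32.3%. The enzymes share libraries, so these counts are a description. CX5461 replicate 2, which stood apart on all genes, was the highest for none of them and the lowest for 2, and without it Tk1, Rrm2 and Rrm1 kept their direction and call.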

How the data were processed

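RNA sequencing of 6 B16 libraries was analysed. The deposited table holds whole-number counts of reads per protein-coding gene, not normalized by the authors, since column totals differ. Per the submitters' processing notes the builds are GRCm38 and mm10, while for the aligner, the counting tool and the strand setting nothing is given in the sources used here. Columns were matched to samples by their description labels. Genes were filtered with filterByExpr (minimum count 10), scaled by TMM (factors 0.970 to 1.03) and tested with edgeR 4.0.16 in R 4.3.3 (quasi-likelihood F test, treatment only, two-sided, all 6 libraries). Each SE comes from the F statistic, as the log2 change over its square root. Members and lists were chosen with earlier results of these data known. Named genes were the 9 enzymes, the partner, pyrimidine and regulator lists, the 3 largest called changes at 5 CPM or more in every other list, and the 2 nearest profiles per enzyme. Where a symbol had 2 rows (Uck2), the row whose identifier the annotation gives that symbol was used. Lengths are those of the principal protein-coding transcript in GENCODE M21, which matched 21842 of 22740 identifiers. Ratios used exact permutation tests. In simulated counts made for this comparison (12113 genes), 50 genes were changed at each size. Found by edgeR were 39 of the 1.25-fold, 43 of the 1.5-fold, 47 of the 2-fold and all 50 of the 4-fold genes, beside 16 false calls. Far fewer genes were changed there than the 73.7% of tested genes that passed in the data, so these rates need not carry over. Alternatives were RLE factors, library totals, no filter, DESeq2 1.42.0, a replicate block, a gene-span offset with and without that block, and each library left out. Counts of the partner list cover all 20 genes, of which 2 are not reported here by name.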

Additional observations from a re-analysis of the deposited data

How the results depend on the processing

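Of the 9 enzymes, Tk1, Tyms, Rrm1, Rrm2, Dut, Dtymk and Umps kept direction and call under all 13 alternatives. Samhd1 stayed higher but did not pass with library totals only (0.089), no filter (0.15), DESeq2 (0.16) or the gene-span offset without (0.12) or with (0.12) the replicate block, and ran from 0.13 to 0.19 with a library left out. Dck ran from 0.067 to 0.22 with a library left out. Deviations from the group mean, over all tested genes, had correlations of 0.036, 0.004 and -0.008 between same-numbered libraries. With 3 libraries per group these values cannot settle whether the replicate numbers pair the samples. With the replicate block 4536 genes were higher and 4464 lower, against 4538 and 4448, and 7 and 1 of the enzymes. DESeq2 gave 4300 and 4192, library totals 3989 and 5109, and the gene-span offset 3740 and 5350, where the median log2 change of all genes was -0.10. Dctd turned to -0.047 with library totals, -0.082 with the gene-span offset, -0.084 with that offset and the replicate block, and ran from -0.042 to 0.056 with a library left out, and Tymp from -0.15 to 0.12. The cause of these changes was not tested. The low DMSO counts of Tk1 limit the precision of its fold.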
